A study of Mus musculus with 18 samples.

Results

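Genes of lipid handling were described across the cells of expanded and control mouse skin: Fabp4, Fabp5, Cd36, Lpl, Plin2, Trem2, Gpnmb, Apoe, Lgals3 and Abca1, which are 10 of the 32285 genes counted. They were taken by their symbols, and all 10 were found in each of the 10 mRNA count matrices. They had been selected on measured values, their levels in macrophages and endothelium and the differences there between expanded and control skin. Their values in those 2 cell classes are therefore given as a description, while the other cell classes were tested. The same fit was run in the 2 classes, but nothing is read from its calls on the 10 genes.

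Single cells of back skin were counted by droplet 3′ mRNA sequencing to follow the response of skin to stretch over the first days. All mice, controls included, had the same operation, an incision near the tail from which a path under the skin was opened with forceps up to the neck. Expanded mice then received a hydrogel expander under the skin near the neck, which was held by stitches, and control mice received none. Skin was taken 1, 2 or 4 days after surgery, living cells that excluded DAPI were sorted, and the mice of 1 arm and round were pooled in 1 tube. Round is the number that follows the day in the library name. Each arm had 5 mRNA libraries, 2 from day 1, 2 from day 2 and 1 from day 4. In what follows, 5 values of an arm always stand in the order day 1 rounds 1 and 2, day 2 rounds 1 and 2, and day 4 round 1. The labels give no strain, sex or age and name no transgene, and the controls lack an implant of any kind, so that stretch and the presence of a gel under the skin cannot be told apart. Each library is a pool of mice, and p-values measure the spread between these pools.

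After filtering, 45473 cells remained, 28438 control and 17035 expanded, from libraries with 17726739 to 75470722 gene UMIs (unique molecular identifiers, 1 per captured mRNA molecule). Clustering gave 35 clusters, of which 24 received 1 of 15 class names from fixed marker lists. These names were rebuilt here and can differ from another annotation of the same cells. The macrophage or monocyte-like class, called macrophage-like below, held 5085 cells, and all 16 genes of its marker list were detected. The vascular endothelial-like class held 2634 cells with all 15 genes of its list detected. Any pair of libraries shared at most 18 cell barcodes. The highest share of the smaller library was 0.413%, in a different pair with 14 shared barcodes.

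Fatty acids reach cells when lipoprotein lipase, encoded by Lpl, frees them from circulating triglyceride at the capillary wall. Cd36 encodes a membrane receptor that takes up fatty acids and oxidised lipoproteins, and Fabp4 and Fabp5 encode small cytosolic proteins that carry fatty acids inside the cell. Surplus lipid is stored in droplets coated by perilipin 2 (Plin2), or leaves as cholesterol through the transporter ABCA1 onto apolipoproteins such as apolipoprotein E (Apoe). Trem2, a lipid-sensing surface receptor, Gpnmb, a glycoprotein of lysosomes and the cell surface, and Lgals3, the lectin galectin-3, are known from macrophages that take up lipid in fat, plaques and injured tissue.

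In mm10, Fabp5 lies at chr3:10012548-10016607 on the plus strand and Fabp4 at chr3:10204088-10208576 on the minus strand, 187.48 kb apart with the related genes Pmp2 and Fabp9 between them. The other loci are Cd36 at chr5:17781690-17888801, Lpl at chr8:68880491-68907448, Plin2 at chr4:86648386-86670060, Abca1 at chr4:53030787-53159895, Gpnmb at chr6:49036546-49070929, Apoe at chr7:19696109-19699188, Lgals3 at chr14:47367751-47386160 and Trem2 at chr17:48346401-48354147.

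Upstream windows of 250 bases were read from RefSeq (GRCm38.p6), which gave 9 windows for 7 of the 10 genes; Fabp4, Fabp5 and Lpl are named only. They were searched on both strands for AGGTCA, the nuclear receptor half-site that PPAR and LXR dimers read, for TGANTCA, the AP-1 motif, for CACGTG, the E-box of MiT/TFE factors, for GGAAGT, a core bound by ETS factors such as PU.1, and for TATAAA. The 5 windows below belong to genes that went opposite ways between the arms in macrophage-like cells (Plin2 and Trem2 higher in most pairs of libraries, Apoe and Abca1 lower in all) and to Cd36, which was lower in endothelium. They are printed 5′ to 3′ on the gene's own strand, with motif matches in capitals.
Plin2, chr4:86670060-86670309, minus strand: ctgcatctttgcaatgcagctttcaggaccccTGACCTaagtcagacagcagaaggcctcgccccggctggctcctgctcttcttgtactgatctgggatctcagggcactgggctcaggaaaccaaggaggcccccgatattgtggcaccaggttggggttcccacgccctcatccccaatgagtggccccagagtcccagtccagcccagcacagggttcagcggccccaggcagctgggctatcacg
Trem2, chr17:48346151-48346400, plus strand: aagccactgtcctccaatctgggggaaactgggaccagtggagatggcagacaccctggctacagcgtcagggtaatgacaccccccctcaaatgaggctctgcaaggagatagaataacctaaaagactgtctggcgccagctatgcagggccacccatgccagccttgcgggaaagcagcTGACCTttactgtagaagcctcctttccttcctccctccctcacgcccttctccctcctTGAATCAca
Cd36, chr5:17835897-17836146, minus strand: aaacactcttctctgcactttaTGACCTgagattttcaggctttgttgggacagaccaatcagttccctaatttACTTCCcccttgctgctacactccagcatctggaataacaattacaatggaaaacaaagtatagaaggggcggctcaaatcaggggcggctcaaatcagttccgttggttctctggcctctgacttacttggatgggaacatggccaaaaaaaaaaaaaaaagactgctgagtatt
Apoe, chr7:19699189-19699438, minus strand: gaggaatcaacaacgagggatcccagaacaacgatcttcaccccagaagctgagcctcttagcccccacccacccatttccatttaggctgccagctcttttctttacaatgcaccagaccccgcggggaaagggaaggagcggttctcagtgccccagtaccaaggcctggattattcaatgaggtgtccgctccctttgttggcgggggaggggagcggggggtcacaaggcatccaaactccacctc
Abca1, chr4:53159896-53160145, minus strand: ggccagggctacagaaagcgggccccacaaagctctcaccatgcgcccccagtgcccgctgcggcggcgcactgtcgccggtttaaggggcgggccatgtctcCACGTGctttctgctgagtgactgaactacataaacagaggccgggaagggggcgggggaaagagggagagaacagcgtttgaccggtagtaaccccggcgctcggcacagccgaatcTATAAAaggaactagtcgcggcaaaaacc

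The AGGTCA match, read as TGACCT on the printed strand, began 218 bases upstream of the start in Plin2, 228 in Cd36 and 68 in Trem2. Those were 3 of the 9 windows, and 14.0% of 32851 mouse promoters held the same letters in 250 bases. The Cd36 window lies inside the Cd36 locus given above, so its start is not the one at the 5′ end of that locus. The Trem2 window also held TGANTCA 9 bases upstream, a motif found in 6.75% of promoters. In the Abca1 window CACGTG began 147 and TATAAA 29 bases upstream, against 6.02% and 12.4% of promoters. The Cd36 window held GGAAGT, printed as ACTTCC, 176 bases upstream, against 19.7% of promoters. The printed Apoe window held none of these letters. Another Apoe window, chr7:19698622-19698871, is not printed and held TATAAA 100 and 96 bases upstream. The windows of Gpnmb and Lgals3, which stood higher in expanded macrophage-like cells too and are not printed, held none of these letters. A match of this kind is a description of the letters and not a bound site.

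In control skin, 4 of the 10 genes had their highest class mean in the 2 named classes. Levels are given as counts per 1e6 UMIs (CPM) of the summed cells of a class in a library, as mean ± SD over libraries, in the 18 classes and unnamed clusters with enough control cells. Fabp4 was highest in vascular endothelial-like cells at 10210.2 ± 4078 CPM (n = 5), and its lowest library there, at 4941 CPM, lay above the highest of 2626 CPM in cluster 15, which was led by the mural cell genes Myh11, Rgs5 and Acta2. Cd36 was also highest in endothelium at 981 ± 390 CPM (n = 5), and sebocyte-like, macrophage-like and cluster 15 cells followed with overlapping libraries between 77.1 and 85.8 CPM on average. Trem2 was highest in macrophage-like cells at 52.8 ± 27.1 CPM (n = 5), with 17.0 CPM in the lowest library, and dendritic-like cells came next with 2.50 to 10.8 CPM. Abca1 was highest in macrophage-like cells too, at 633 ± 212 CPM (n = 5), but its libraries there overlapped those of endothelium, which averaged 354 ± 47.6 CPM (n = 5).

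The other 6 genes peaked elsewhere. Sebocyte-like cells, the lipid-making cells of the skin gland, had the highest control means of Plin2 (2018 ± 499.7 CPM, n = 4), of Fabp5 (4288 ± 2830 CPM, n = 4) and of Apoe (15206 ± 2113 CPM, n = 4). Plin2 separated sebocyte-like libraries, all at 1296 CPM or more, from macrophage-like ones, which came next at 293 ± 76.4 CPM (n = 5). Macrophage-like cells were also next for Fabp5 at 863 ± 708 CPM (n = 5), where the libraries overlapped. For Apoe, suprabasal keratinocyte-like cells at 11426 ± 2513 CPM (n = 5) came before macrophage-like cells at 8023 ± 2350 CPM (n = 5), again with overlap. Melanocyte-like cells led for Gpnmb, which encodes a melanosome protein, at 1229 ± 551 CPM (n = 4), and for Lgals3 at 3751 ± 953 CPM (n = 4). Macrophage-like cells ranked after 3 classes for Gpnmb, at 63.1 ± 21.8 CPM, and after 2 for Lgals3, at 1960.2 ± 424 CPM (n = 5 each). Lpl was highest in cluster 14 at 466.1 ± 352 CPM, in cluster 2 at 375 ± 101 CPM and in fibroblast-like cells at 277 ± 65.7 CPM (n = 5 each), all overlapping. Cluster 14 was led by the haemoglobin gene Hbb-bs and the muscle stem cell gene Pax7, and the adipocyte list summed there to 51.4 to 5243 CPM in control libraries, whose part in that Lpl level was not tested. Macrophage-like cells held 150.3 ± 64.4 CPM of Lpl and vascular endothelial-like cells 17.6 ± 8.70 CPM (n = 5 each). Classes with at least 20 cells in fewer than 4 control libraries stand outside this order, and some held more. Neutrophil-like cells had 753 and 755 CPM of Plin2 in their 2 control libraries of that size, above all macrophage-like ones. Cluster 31, led by Pthlh, Gjb2, Krt6a and Krt17, had 53506 and 35496 CPM of Apoe in 2 control libraries, above all sebocyte-like ones, and 4443 and 3672 CPM of Fabp5. Hair follicle keratinocyte-like cells and cluster 27 also had higher control means of Fabp5 than macrophage-like cells.

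In macrophage-like cells, the fatty acid carrier Fabp5, the droplet coat gene Plin2, Gpnmb and Lgals3 stood higher in all expanded libraries than in all control libraries, while the cholesterol-side genes Apoe and Abca1 were lower in all 5 pairs of the same day and round. Lpl, Cd36, Fabp4 and Trem2 overlapped between the arms. Of the 10 genes, 6 passed an adjusted p under 0.05 in the edgeR fit, 4 higher and 2 lower, in a class where 24.8% of 9931 genes did (11.9% higher, 12.9% lower). The arms did not overlap for 4, all higher, where 8.07% of genes were higher in every expanded library. The median log2 difference of the 10 genes was 0.59, against 0.03 for all genes tested. The genes were chosen with this contrast in view, so nothing is read from those counts or from that median. Log2 differences come from scaled counts with day in the model, and so can depart from ratios of CPM. Library sums rested on 139 to 1075 cells and 1474466 to 14342280 UMIs.

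Of the uptake genes, Cd36 stood at 114, 110.3, 109.9, 48.7 and 42.6 CPM in control macrophage-like cells and at 44.0, 257, 100.4, 30.6 and 61.4 CPM in expanded ones. The arms overlapped, with the highest value in the expanded day 1 round 2 library. There, 378 of the 402 macrophage-like cells were assigned to 1 mouse, which held 268 CPM of Cd36. The log2 difference was 0.10 ± 0.48 (SE) and became -0.50 without that library. Lpl was at 203, 234, 83.4, 116 and 115 CPM in control libraries and at 225, 29.8, 70.3, 67.0 and 71.0 CPM in expanded libraries. It was lower in 4 of 5 pairs, and the exception was the expanded day 1 round 1 library. Its log2 difference was -0.80 ± 0.37.

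Of the carriers, Fabp5 stood at 475, 480.5, 298, 2030.4 and 1032 CPM in control libraries and at 2275, 4455, 6622, 4071 and 6824 CPM in expanded libraries. The lowest expanded library exceeded the highest control library, which was that of day 2 round 2. The log2 difference was 2.49 ± 0.42, or 5.62-fold. Its neighbour Fabp4, the carrier typical of fat cells and capillaries, was low in these cells, at 44.9, 96.6, 29.2, 16.8 and 27.3 CPM in control libraries and 50.4, 58.8, 60.8, 17.0 and 124 CPM in expanded libraries. Fabp4 overlapped between the arms, with a log2 difference of 0.51 ± 0.47. Plin2 was at 213, 362, 208, 336 and 348 CPM in control libraries and at 373, 454, 580.4, 445 and 648 CPM in expanded libraries. The arms did not overlap, although the gap between 362 and 373 CPM was narrow, and the log2 difference was 0.66 ± 0.20.

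On the export side, Apoe stood at 7289, 9365, 10039.6, 4238 and 9185 CPM in control libraries and at 5404, 713, 362, 577 and 2841 CPM in expanded libraries. Every expanded library was lower than its control partner, but the expanded day 1 round 1 library lay above the lowest control library. The log2 difference was -2.61 ± 0.62, and -3.43 without that expanded library. Abca1 was at 843, 860.5, 539, 369.6 and 554 CPM in control libraries and at 287, 376, 251, 196 and 399 CPM in expanded libraries. It was lower in each of the 5 pairs, with overlap between the day 2 round 2 control library and 2 expanded libraries. Its log2 difference was -1.15 ± 0.20.

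Among the receptor and lysosomal genes, Gpnmb stood at 75.4, 68.7, 24.4, 75.9 and 71.1 CPM in control libraries and at 80.1, 198, 237, 165 and 348 CPM in expanded libraries. The expanded day 1 round 1 library lay just above the highest control library, and the other expanded libraries were all at 165 CPM or more. The log2 difference was 1.56 ± 0.36. Lgals3 was at 1826, 2483, 1358, 2211 and 1922.5 CPM in control libraries and at 2834, 7714, 6367, 4366.5 and 7200.4 CPM in expanded libraries. All expanded libraries were above all control libraries, with a log2 difference of 1.45 ± 0.29. Trem2 was at 36.7, 63.2, 17.0, 59.1 and 88.1 CPM in control libraries and at 106, 48.8, 68.9, 81.2 and 172 CPM in expanded libraries. It was higher in 4 of 5 pairs and overlapped, with a log2 difference of 0.72 ± 0.29.

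**Figure D1:**
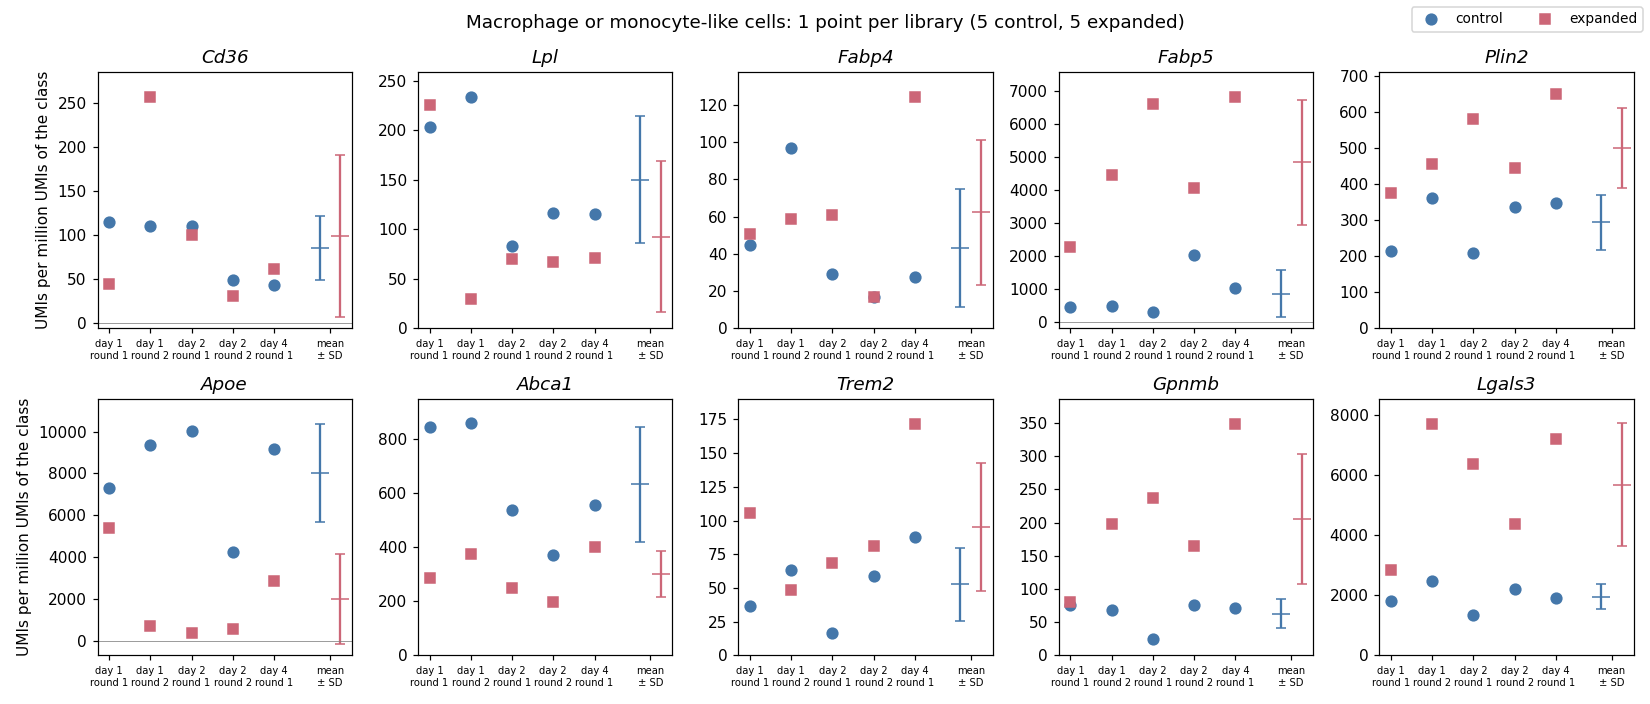
CPM of the 10 genes in macrophage-like cells of each library, by day (x axis) and arm (colour). Fabp5, Plin2, Gpnmb and Lgals3 show no overlap between the arms, and Apoe falls between 4238 and 10039.6 CPM in control libraries against 362 to 5404 CPM in expanded ones.

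Markers of other cells differed between these sums as well. The neutrophil list (10 of 10 genes detected) summed to 59.0 to 149 CPM in control and 348 to 1962 CPM in expanded macrophage-like cells, and the Langerhans cell list (6 of 6) to 5082 to 14033 CPM and 698 to 3454 CPM. The fibroblast list (12 of 12) ran from 355 to 2332 CPM in control and from 64.6 to 372 CPM in expanded libraries, and the macrophage list itself from 18436 to 24944 CPM and from 10231 to 20173 CPM. The adipocyte list stayed at or below 4.75 CPM, with Lep and Adrb3 at 0. Median depth was 6174.5 UMIs per control cell and 11823 per expanded cell. The part of these differences in the values above was not tested.

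To set the arms at equal depth, each cell was thinned to 2000 UMIs, which left out 247 of the control and 72 of the expanded macrophage-like cells. The share of cells with a Fabp5 UMI was then 42.3% ± 12.5 in control and 79.1% ± 9.64 in expanded libraries (SD, n = 5 each; unthinned 57.3% and 91.7%). It was 3.19% and 5.92% in lymphatic endothelial-like cells, at median depths of 3552 and 5571 UMIs before thinning. In T cell-like cells it was 15.5% in both arms, at median depths of 3417.5 and 4689 UMIs. Cells with an Apoe UMI made up 92.2% ± 10.0 of control and 48.2% ± 21.9 of expanded macrophage-like cells (unthinned 96.2% and 66.3%), against 10.8% and 6.41% of T cell-like cells. Gpnmb was seen in 6.03% ± 1.09 and 17.3% ± 6.28 of cells (unthinned 10.8% and 31.9%), against 1.26% and 0.485% of T cell-like cells. Trem2 was seen in 7.11% ± 3.54 and 12.7% ± 5.18 (unthinned 16.4% and 36.5%), against at most 0.0820% of T cell-like cells. Cells with both Trem2 and Gpnmb were 1.04% ± 0.618 of control and 4.74% ± 3.36 of expanded cells. For Lgals3 the shares of 81.4% and 97.3% stood beside 63.5% and 61.9% in T cell-like cells. How much of the T cell-like share is RNA from other cells was not tested.

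The class was not of the same make-up in both arms. Cluster 7, led by the resident macrophage genes C1qc, Ccl24, Cd209g and Folr2, held 81.1% of the control cells, and cluster 6, led by Chil3, Ppbp, Arg1, Msr1 and Ly6c2, genes of monocytes and their progeny, held 90.7% of the expanded cells. By library, cluster 6 held 2.90%, 3.40%, 3.70%, 48.3% and 7.09% of control macrophage-like cells and 38.1%, 84.1%, 99.3%, 95.5% and 89.1% of expanded ones. The day 2 round 2 control library had the largest control share of cluster 6. It was highest of its arm in Fabp5 and lowest in Apoe and Abca1, but not highest in Plin2, Lgals3 or Trem2. The expanded day 1 round 1 library had the smallest expanded share. It was lowest of its arm in Fabp5, Plin2, Gpnmb and Lgals3 and highest in Apoe, but not highest in Abca1. The part of cluster make-up in the library values was not tested. The 10 genes took part in the clustering, so the cluster sizes are not read as a result about them.

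Within cluster 7, 5 control and 3 expanded libraries had at least 20 cells. The expanded ones were those of day 1 rounds 1 and 2 and of day 4, with 82, 54 and 54 cells. Those of day 2 held 6 and 8 cells, so day 2 stood only on the control side. Fabp5 in cluster 7 ran from 288 to 879 CPM (569.8 ± 249) in control and from 1947 to 8890.4 CPM (4598 ± 3751) in expanded libraries. Trem2 ran from 17.2 to 80.1 CPM and from 118 to 184 CPM, and Lgals3 from 1304 to 2439 CPM and from 2608 to 5421 CPM. Those 3 genes did not overlap between the arms, and neither did Apoe, at 7153 to 10051 CPM in control and 3007 to 6773 CPM in expanded libraries, or Abca1, at 419 to 883 CPM and 296 to 373 CPM. In cluster 7, 15.2% of genes did not overlap between the arms, and nothing is read from the 5 of 10. Plin2 overlapped at 195 to 353 CPM and 271 to 369.8 CPM, and so did Gpnmb at 23.1 to 65.0 CPM and 11.0 to 161 CPM.

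Within cluster 6, 3 control and 5 expanded libraries had enough cells, and all 10 genes overlapped between the arms, where 8.99% of genes did not. The control libraries of day 1 round 2, day 2 round 2 and day 4 held 20, 263 and 46 of these cells, and nothing is read from the overlap. Fabp5 ran from 1208 to 4429 CPM in control and from 2720.2 to 6652 CPM in expanded libraries. Plin2 was at 371 to 736 CPM and 458 to 684 CPM, and Gpnmb at 113 to 535 CPM and 121 to 372 CPM. Apoe was at 862 to 5224 CPM and 258 to 3564 CPM, and Abca1 at 294 to 489.9 CPM and 196 to 403 CPM. In cluster 6 the control means of Plin2 (575 ± 186 CPM, n = 3) and Gpnmb (267 ± 233 CPM, n = 3) lay near the expanded ones (534 ± 97.9 and 226 ± 94.1 CPM, n = 5).

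**Figure D2:**
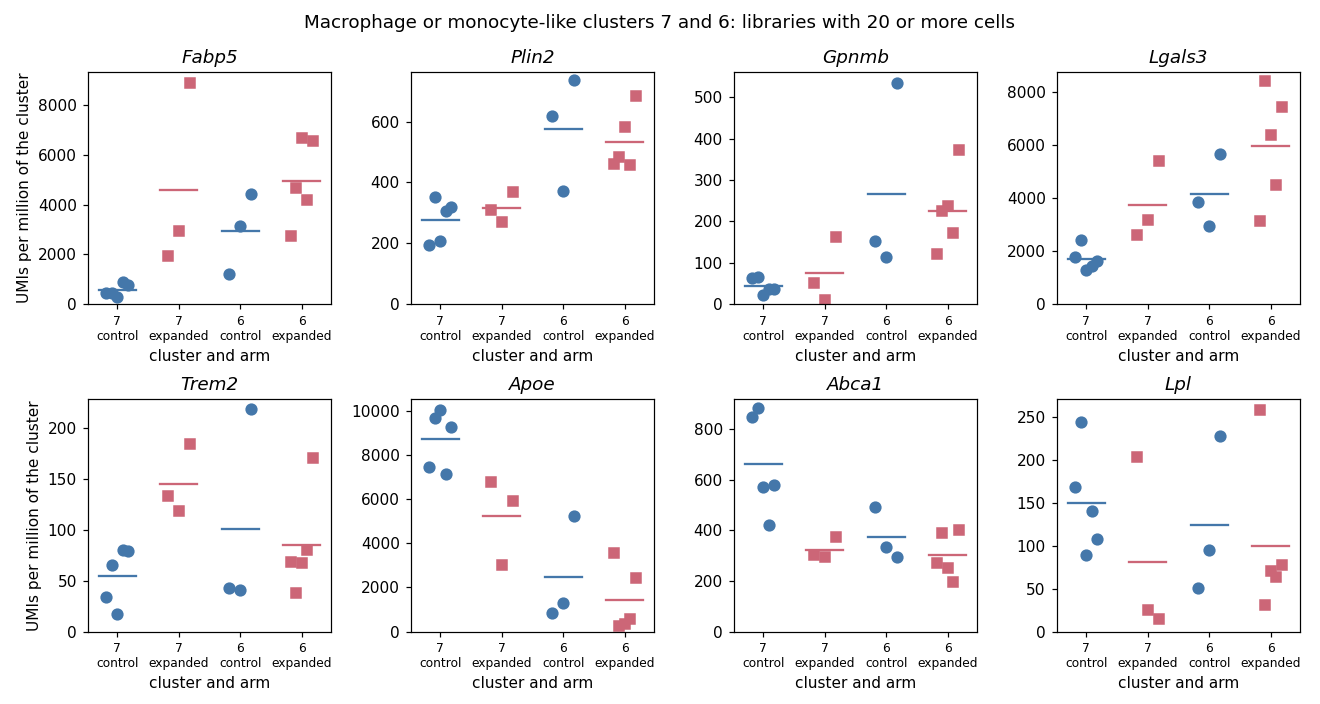
CPM of 8 genes in clusters 7 and 6 of the macrophage-like class, by arm, with 1 point per library of at least 20 cells and a bar at the mean. In cluster 7 the arms stand apart for Fabp5, Trem2, Apoe, Lgals3 and Abca1, and in cluster 6 they overlap for every gene drawn.

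Sub-clusters of the pooled cells showed the genes apart from each other within cluster 6. The sub-cluster with Ccl8, Cd163, Igf1 and Gpr34 among its leading genes (426 cells) held 13603 CPM of Fabp5, 2548 CPM of Apoe and 168 CPM of Trem2. A sub-cluster led by interferon-response genes, Ifit2, Ifit3, Rsad2 and Cxcl10 (271 cells), held 1010.3 CPM of Plin2, 472 CPM of Gpnmb, 188 CPM of Trem2 and 245 CPM of Lpl. The sub-cluster led by Ereg, Cxcl3, Spp1 and Arg1 (436 cells) had 348 CPM of Cd36 and only 228 CPM of Apoe. By contrast, the sub-cluster with Plac8, Hp and Treml4, genes of blood monocytes, among its leading genes (471 cells), had 1284 CPM of Fabp5 and 7.62 CPM of Lpl. These values pool libraries, and the genes helped to shape the sub-clusters, so no test was made.

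Hashing gave single mice in 8 of the 10 libraries, and 99.7% of hashed macrophage-like cells could be assigned. On day 2, Fabp5 ran from 229 to 3094 CPM (median 516) in 7 control mice and from 2844 to 9032 CPM (median 4730.1) in 7 expanded mice, so that the highest control mouse overlapped the lowest expanded mouse. Apoe ran from 946 to 11666 CPM (median 5971) and from 143 to 1345 CPM (median 376), also with overlap. Lgals3 did not overlap, at 1090.1 to 2819 CPM and 3909.7 to 8057 CPM. Gpnmb overlapped at 14.2 to 93.8 CPM (median 47.6) and 82.0 to 268 CPM (median 182). On day 4, with 4 mice an arm, Fabp5 ran from 861 to 1518 CPM in control and from 5226 to 9241 CPM in expanded mice, Apoe from 4945 to 11847 CPM and from 2052 to 4616 CPM, and Lgals3 from 1566 to 2604 CPM and from 4624 to 7566 CPM, none of them overlapping. Abca1 overlapped on day 4, at 507 to 602 CPM and 313 to 587 CPM, as did Trem2 at 41.8 to 151 CPM and 54.3 to 219 CPM. On day 1 only 2 control mice and 1 expanded mouse had 20 or more such cells.

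The rest of the lipid pathway was read from 5 lists that leave out the 10 genes, chosen with earlier results known. Their counts and p-values, here and in endothelium, are therefore a description and not an independent test. The genes named as rising or falling were picked as the largest called differences of each list. Of the 95 listed genes, 79 were tested in macrophage-like cells, and 12 rose and 12 fell (adjusted p under 0.05, edgeR quasi-likelihood test with Benjamini-Hochberg adjustment over all genes), beside 11.9% and 12.9% of all genes. Without the expanded day 1 round 1 library 19 rose, and without 1 of the day 1 control libraries or 1 of the day 4 libraries 6 or 7 fell. Among 9 uptake and surface lipolysis genes, 3 rose (median log2 difference 0.64). Msr1, the class A scavenger receptor, rose from 174 ± 68.8 to 628 ± 88.5 CPM (log2 1.78 ± 0.18, adjusted p = 0.0011, edgeR; n = 5 each).

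Of 17 droplet genes, 3 rose and 3 fell (median log2 difference 0.08). The acyltransferases Gpat3 and Dgat2, which build triglyceride, rose by 1.57 ± 0.36 and 1.22 ± 0.26 on the log2 scale (adjusted p = 0.0111 and 0.00787, edgeR). Lipa, the lysosomal acid lipase, fell from 107 ± 33.5 to 58.2 ± 23.2 CPM (log2 -0.96 ± 0.24, adjusted p = 0.0157, edgeR). Lpin1, a phosphatidate phosphatase, fell by 0.83 on the log2 scale (adjusted p = 0.0308, edgeR), and that call was lost when any of 7 single libraries was left out (adjusted p up to 0.0835). The Lipa call was lost without either day 4 library (adjusted p = 0.0557 without the control and 0.0529 without the expanded one).

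Of 17 export and lysosomal lipid genes, 2 rose and 6 fell, with a median log2 difference of -0.29. Cyp27a1, which makes 27-hydroxycholesterol, fell from 34.4 ± 13.0 to 5.90 ± 3.80 CPM (log2 -2.75 ± 0.42, adjusted p = 0.00217, edgeR). Pltp, the phospholipid transfer protein, fell from 601 ± 235 to 168 ± 182 CPM (log2 -2.35 ± 0.56, adjusted p = 0.0133, edgeR), and by 3.05 on that scale without the expanded day 1 round 1 library. Apoc2, the activator of lipoprotein lipase, rose from 8.00 ± 4.95 to 41.3 ± 25.4 CPM (log2 2.26 ± 0.28, adjusted p = 0.00111, edgeR). Apoc2 lies in the cluster of apolipoprotein genes next to Apoe, and the 2 genes differed in opposite directions.

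Among 15 genes of fatty acid oxidation and PPAR targets, 1 fell in macrophage-like cells (median log2 difference 0.09). That was Pparg, the nuclear receptor itself, from 13.7 ± 6.76 to 5.18 ± 2.84 CPM (log2 -1.53 ± 0.40, adjusted p = 0.0190, edgeR), with adjusted p = 0.0548 without the control day 1 round 2 library. Of 21 tested genes of the lipid-associated macrophage programme outside the 10, 4 rose and 2 fell (median log2 difference 0.05). Spp1, which encodes osteopontin, rose from 39.9 ± 25.3 to 1336 ± 992 CPM (log2 5.04 ± 0.71, adjusted p = 0.00167, edgeR), and Ctsl, a lysosomal protease, from 1306 ± 380.3 to 3433 ± 1264 CPM (log2 1.34 ± 0.25, adjusted p = 0.00483, edgeR). Igf1 fell from 354 ± 133 to 58.3 ± 84.2 CPM (log2 -3.52 ± 0.65, adjusted p = 0.0046, edgeR), and by 4.23 on the log2 scale without the expanded day 1 round 1 library. Axl, a receptor for dying cells, fell by 1.83 on the log2 scale (adjusted p = 0.0402, edgeR). The Axl difference was -2.58 without the expanded day 1 round 1 library, and the call was lost when any 1 of the other 9 libraries was left out (adjusted p up to 0.128).

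In vascular endothelial-like cells, the capillary lipase gene Lpl, the carrier gene Fabp4 and the uptake receptor gene Cd36 had the largest log2 differences of the genes tested, and all were lower with the expander in 5 of 5 pairs. Apoe was lower in 5 of 5 pairs as well. Of 9 genes tested, 4 passed an adjusted p under 0.05 in the edgeR fit, all lower, in a class where 11.6% of 9433 genes did (6.14% lower, 5.44% higher). The arms did not overlap for 2, where 2.64% of genes were lower in every expanded library. The median log2 difference of the 9 genes was -1.07, against 0.02 for all genes tested. Here too the genes were chosen with the contrast in view, and nothing is read from the counts or from that median. Library sums rested on 49 to 540 cells and 605230 to 4265405 UMIs.

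Fabp4 stood at 8235, 15874, 10128, 4941 and 11873 CPM in control endothelium and at 1866, 1199.9, 2750, 4252 and 6091 CPM in expanded endothelium. The arms overlapped through the day 2 round 2 control library, which was below the expanded day 4 library. The log2 difference was -1.92 ± 0.38. Cd36 was at 596, 1518, 1082, 599.7 and 1108 CPM in control libraries and at 305, 239, 207, 519.5 and 614 CPM in expanded libraries. Only the expanded day 4 library, at 614 CPM, reached the control range, and the log2 difference was -1.55 ± 0.32. Fabp5 was at 613, 809, 469, 302 and 592 CPM in control libraries and at 85.7, 85.6, 203, 371 and 642 CPM in expanded libraries. It was lower in both day 1 pairs and in 1 day 2 pair and higher in the other 2 pairs, with a log2 difference of -1.44 ± 0.48.

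Lpl was scarce in endothelium, with 139 UMIs over the control and 34 over the expanded libraries. It stood at 12.8, 15.03, 33.0, 14.6 and 12.6 CPM in control libraries and at 8.24, 0.234, 3.56, 1.43 and 1.85 CPM in expanded libraries. The arms did not overlap, and the log2 difference of -2.47 ± 0.57 became -3.58 without the expanded day 1 round 1 library. In that library the fibroblast markers summed to 4280.5 CPM, the highest of the 10, where control libraries held 1082 to 2342 CPM and the other expanded libraries less. Of the 34 expanded Lpl UMIs, 16 lay in 7 cells of a sub-cluster with the fibroblast genes Col1a1 and Col1a2 among its leading genes; the same 7 cells held 94.4% of the expanded Gpnmb UMIs. The adipocyte list (7 of 10 genes detected, with Lep, Retn and Adrb3 at 0) summed to 9.63 to 23.1 CPM in control and 0.890 to 11.4 CPM in expanded endothelium. The part of fibroblast or fat cell RNA in the Lpl values was not tested.

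Apoe stood at 674, 619, 745, 477 and 832 CPM in control endothelium and at 397, 388, 179.9, 354 and 422 CPM in expanded endothelium. The arms did not overlap, and the log2 difference was -1.07 ± 0.19. Abca1 differed little, at 299 to 428 CPM in control and 261 to 403 CPM in expanded libraries (log2 -0.22 ± 0.11). Lgals3 was higher in 5 of 5 pairs, at 264 to 559 CPM in control and 367 to 679.7 CPM in expanded libraries, with overlap and a log2 difference of 0.20 ± 0.11. Plin2 was at 41.3 to 113 CPM and 26.7 to 75.6 CPM (log2 -0.63 ± 0.26). Gpnmb stayed under 12 CPM outside the expanded day 1 round 1 library, where it was 23.2 CPM. Trem2 gave 1 UMI in all 10 libraries and was not tested.

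**Figure D3:**
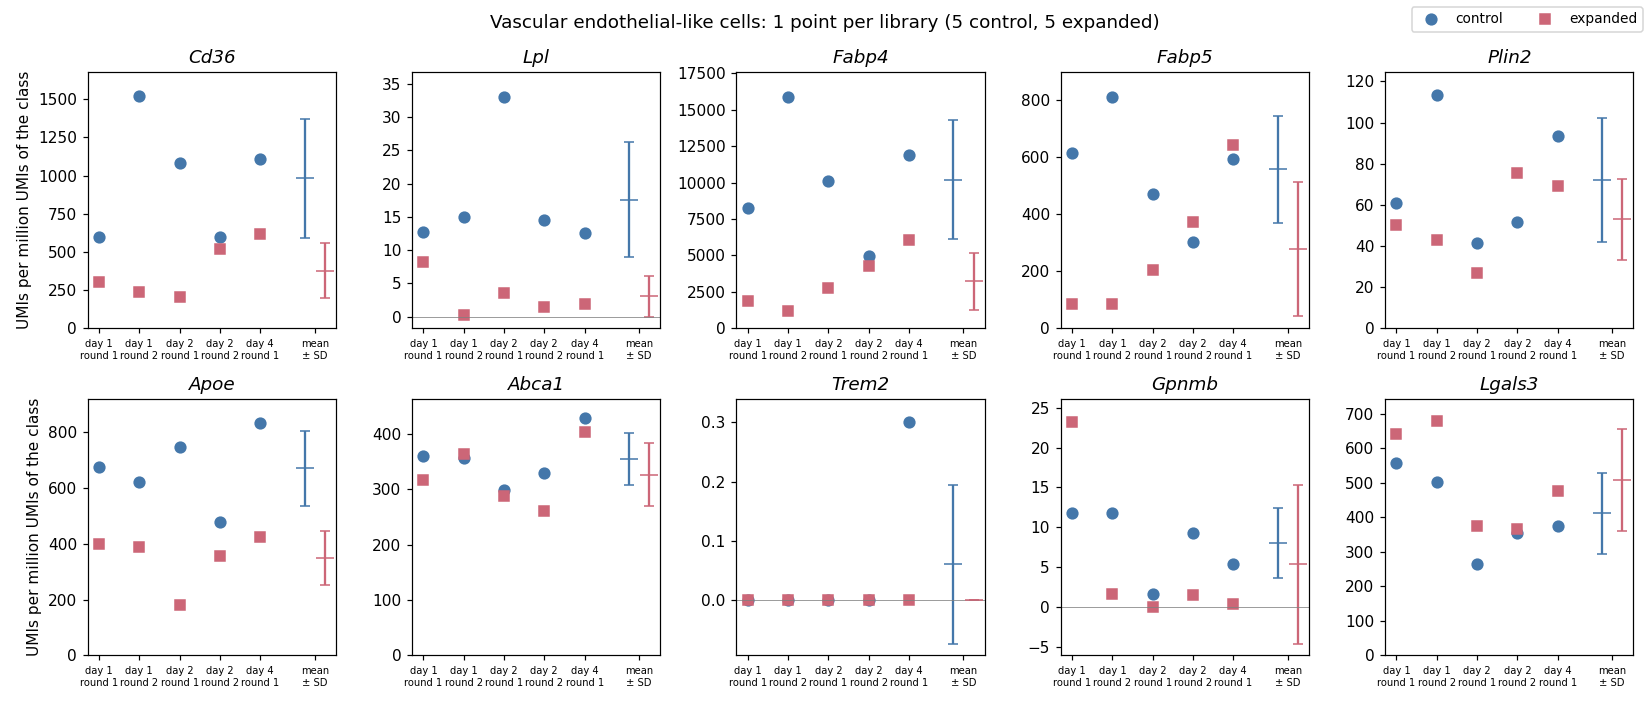
CPM of the 10 genes in vascular endothelial-like cells of each library, by day (x axis) and arm (colour). Lpl and Apoe do not overlap between the arms, Fabp4 ranges from 4941 to 15874 CPM in control against 1199.9 to 6091 CPM in expanded libraries, and Trem2 is near 0 throughout.

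Thinned to 2000 UMIs a cell, 54.8% ± 10.1 of control and 30.5% ± 9.51 of expanded endothelial cells had a Fabp4 UMI (SD, n = 5; unthinned 56.9% and 34.4%), beside 2.08% and 0.437% of T cell-like cells. For Cd36 the shares were 54.0% ± 10.9 and 29.9% ± 9.63 (unthinned 65.9% and 49.0%), beside 0.142% and 0.0287% of T cell-like cells. For Lpl they were 3.31% ± 2.27 and 0.174% ± 0.239 (unthinned 5.88% and 1.63%), beside 1.01% and 0.0820% of T cell-like cells and 1.91% and 0.324% of lymphatic endothelial-like cells. The expanded share of Lpl is therefore not read as expression. For Apoe they were 57.4% ± 4.76 and 39.2% ± 9.74 (unthinned 72.9% and 74.9%), beside 10.8% and 6.41%. The unthinned Apoe shares, at unequal depth, lay close together. The endothelial marker list itself summed to 8509 to 10309 CPM in control and 7906 to 9822 CPM in expanded libraries.

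Most control endothelial UMIs of Fabp4, Cd36, Fabp5 and Lpl lay in 2 sub-clusters, 5.6 and 5.2. Sub-cluster 5.6, led by Aqp7, Btnl9, Rbp7, Timp4, Angptl4 and Gpihbp1, genes of capillaries that take up fatty acids, held 37973 CPM of Fabp4, 4228 CPM of Cd36, 1919.6 CPM of Fabp5 and 64.3 CPM of Lpl in its pooled cells. It comprised 256 of the 1552 control and 24 of the 1082 expanded cells. Of the control endothelial UMIs it held 45.1% of Fabp4, 48.2% of Cd36, 39.4% of Fabp5 and 59.0% of Lpl, but 14.5% of Apoe. Sub-cluster 5.2, led by the chemokine-binding gene Ackr1 and the selectin genes Sele and Selp, held 43.4% of Fabp4, 22.9% of Cd36, 54.1% of Fabp5, 14.4% of Lpl and 46.8% of Apoe. In the expanded arm sub-cluster 5.6 held 24.0% of Fabp4, 20.7% of Cd36, 36.6% of Fabp5 and 8.82% of Lpl (3 UMIs), and sub-cluster 5.2 held 43.9%, 19.0%, 34.6% and 8.82%. The largest expanded share of Cd36 was 26.5%, in sub-cluster 5.4. Sub-cluster 5.0, with Akr1b8, Ppy and Igfbp3 among its leading genes and with 60 control and 451 expanded cells, held only 645 CPM of Fabp4 and 159 CPM of Cd36. Fabp4 is itself a leading gene of sub-cluster 5.6, so the cell numbers are not read as a result.

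Sub-cluster 5.2 had at least 20 cells in 5 control and 3 expanded libraries. The expanded ones were those of day 1 rounds 1 and 2 and of day 4, so day 2 stood only on the control side. Fabp4 in sub-cluster 5.2 ran from 13043 to 19213 CPM in control and from 2971 to 9302 CPM in expanded libraries, without overlap. Cd36 ran from 663 to 1034 CPM and from 68.5 to 587 CPM, Fabp5 from 926 to 1481 CPM and from 230 to 747 CPM, and Apoe from 794 to 1474 CPM and from 482 to 726 CPM, all without overlap. These were 4 of the 10 genes, where 9.12% of genes did not overlap in that sub-cluster, and nothing is read from the count. In the sub-cluster led by Nebl, Igf2, Mgp and the arterial gene Gja5, Fabp4 overlapped, at 6238 to 10548 CPM in 3 control and 4488 to 7004 CPM in 2 expanded libraries.

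Of the pathway lists, 70 genes were tested in endothelium and 11 fell, beside 6.14% of all genes, while 0 rose, beside 5.44%. At an unadjusted p under 0.05, edgeR put 2 of them higher, and DESeq2 called 0 higher and 14 lower. Without either day 4 library, edgeR called 1 of them higher. Of 12 uptake genes, 3 fell (median log2 difference -0.08). Aqp7, a glycerol channel, fell from 26.4 ± 16.1 to 3.38 ± 3.63 CPM (log2 -3.26 ± 0.58, adjusted p = 0.00527, edgeR), and the difference was -3.95 without the control and -3.97 without the expanded day 4 library. Angptl4, an inhibitor of lipoprotein lipase, fell from 125 ± 61.2 to 28.1 ± 10.5 CPM (log2 -2.29 ± 0.33, adjusted p = 0.0020, edgeR; n = 5 each). Gpihbp1, which anchors lipoprotein lipase on the capillary wall, stood at 199.9 ± 79.8 and 217 ± 68.7 CPM with a log2 difference of 0.01 ± 0.27, and did not pass.

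Of 13 endothelial export genes, 4 fell (median log2 difference -0.27), among them Pltp, from 246 ± 70.0 to 82.5 ± 46.8 CPM (log2 -1.73 ± 0.28, adjusted p = 0.00363, edgeR), and Nr1h3, which encodes the oxysterol receptor LXR-alpha, from 25.2 ± 4.97 to 11.8 ± 4.09 CPM (log2 -1.05 ± 0.22, adjusted p = 0.0100, edgeR). Of 16 oxidation and PPAR genes, 2 fell (median log2 difference -0.05). Pdk4, a kinase that favours fat over glucose as fuel, fell by 1.15 on the log2 scale (adjusted p = 0.0169, edgeR) and Pparg by 0.91 (adjusted p = 0.0343, edgeR). The Pdk4 call was lost when any of 4 libraries was left out and the Pparg call when any of 7 was (adjusted p up to 0.0531 and 0.124). Of 16 droplet genes 0 passed by edgeR, 4 were lower at an unadjusted p under 0.05 and DESeq2 called 1, with a median log2 difference of -0.27. Igf1 and Csf1, which stand on the macrophage programme list, fell in endothelium by 2.10 and 0.85 on the log2 scale (adjusted p = 0.00327 and 0.0142, edgeR).

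In the 13 other classes and clusters the contrast was tested, and 24 of 90 tested combinations of gene and class passed an adjusted p under 0.05, 9 higher and 15 lower. Over the same classes, 12.1% of all 98637 combinations passed (5.89% higher, 6.17% lower), from 0.207% in Schwann-like to 35.1% in fibroblast-like cells. Lgals3 rose in 5 of 13 classes, Abca1 fell in 4 of 13, Apoe in 3 of 13 and Lpl in 3 of 8. Fabp5 rose in 3 of 12 and fell in 1, Plin2 rose in 1 and fell in 1 of 12, and Fabp4, Cd36 and Gpnmb each fell in 1 class. These counts include the 3 in lymphatic endothelial-like cells. Trem2 was tested in 1 other class, dendritic-like cells, and did not pass (15.7 ± 11.9 CPM expanded, 6.88 ± 2.96 CPM control, n = 5 each; adjusted p = 0.147, edgeR).

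**Figure D4:**
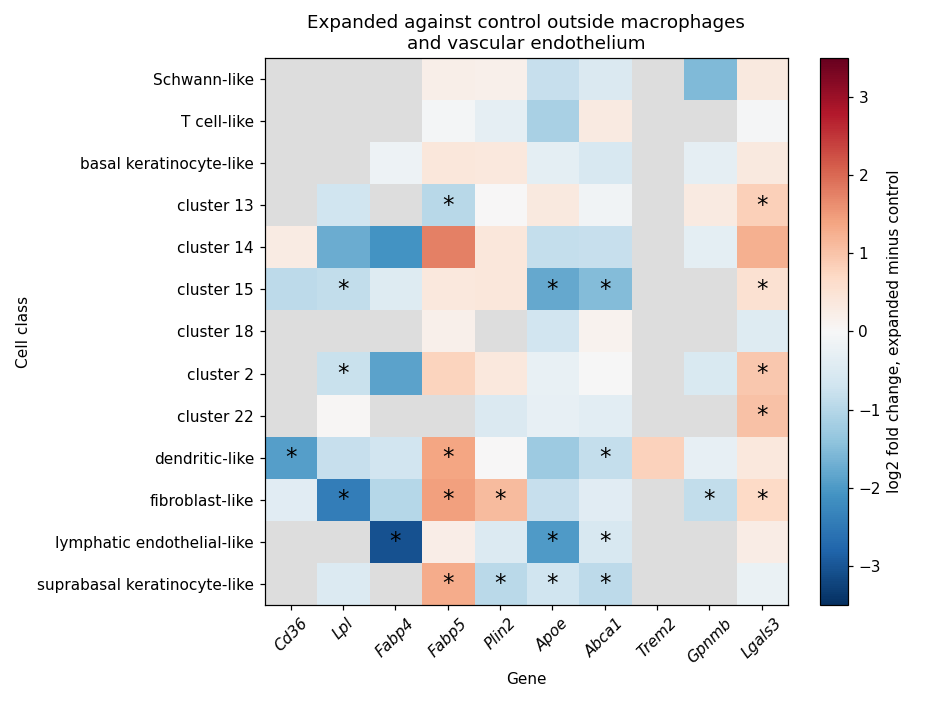
Log2 difference, expanded minus control, of the 10 genes (columns) in 13 other classes and clusters (rows), with an asterisk at an adjusted p under 0.05 and grey where the gene was not tested. Lgals3 carries 5 asterisks, all higher, Abca1 carries 4, all lower, and the lowest value is Fabp4 in lymphatic endothelium at -3.06.

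Fibroblast-like cells had 5 of 9 genes past the threshold, in a class where 35.1% of genes passed. Lpl stood at 361, 247, 300.4, 291 and 185 CPM in control and at 56.8, 34.0, 52.5, 48.6 and 154 CPM in expanded libraries. All expanded libraries lay below the control ones, and Lpl fell by 2.41 ± 0.35 on the log2 scale (adjusted p = 0.000592, edgeR). Plin2 rose from 40.2 ± 8.38 to 109.7 ± 48.8 CPM (log2 1.12 ± 0.25, adjusted p = 0.00555, edgeR) and was higher in 4 of 5 pairs. Fabp5 rose from 23.0 ± 10.2 to 84.6 ± 68.7 CPM (log2 1.43 ± 0.36, adjusted p = 0.0108, edgeR) and was higher in 5 of 5. Lgals3 rose from 1117 ± 192 to 2115 ± 369 CPM without overlap (log2 0.71 ± 0.17, adjusted p = 0.00719, edgeR), and Gpnmb fell from 515 ± 142 to 327 ± 105 CPM (log2 -0.86 ± 0.20, adjusted p = 0.00663, edgeR). Clusters 0 and 1 held most control and cluster 4 most expanded fibroblast-like cells, and the fibroblast list summed to 72966 to 185899 CPM in control and 33067 to 88348 CPM in expanded libraries. The adipocyte list summed to at most 30.4 CPM, with Lep at 0.

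Lymphatic endothelial-like cells had 3 of 6 genes past the threshold, all lower, where 12.6% of genes passed (6.30% lower). They are endothelium too and may have been in view when the genes were chosen, so their values are a description. Fabp4 stood at 574, 248.6, 28.6, 169.9 and 393 CPM in control and at 37.9, 97.9, 1.69, 2.45 and 71.5 CPM in expanded libraries. It was lower in all 5 pairs with overlap between the arms, and the log2 difference was -3.06 ± 0.40. Apoe stood at 168, 201, 162, 269 and 129.8 CPM and at 55.0, 78.3, 23.7, 30.6 and 65.6 CPM. All expanded libraries were below all control libraries, with a log2 difference of -1.97 ± 0.27. Abca1 did not overlap either, at 213 ± 19.8 CPM in control and 154 ± 26.0 CPM in expanded libraries (n = 5 each), with a log2 difference of -0.55 ± 0.16 that passed the threshold in only 5 of the 10 fits with 1 library left out. The vascular endothelial list summed to 2110 to 3215 CPM in control and 3099 to 3799 CPM in expanded lymphatic cells. The fibroblast list summed to 6971, 2593, 1279, 411 and 1711 CPM in control and to 4799, 278, 178, 175 and 138 CPM in expanded libraries, lower in all 5 pairs. The part of either list in these values was not tested.

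Suprabasal keratinocyte-like cells had 4 of 6 genes past the threshold, where 25.6% of genes passed. Abca1 stood at 75.02, 59.1, 88.5, 60.1 and 72.5 CPM in control and at 48.4, 34.9, 35.4, 27.3 and 47.7 CPM in expanded libraries. Control and expanded libraries did not overlap, and Abca1 fell by 0.93 ± 0.16 on the log2 scale (adjusted p = 0.0020, edgeR). Fabp5, the epidermal carrier, stood at 426, 452.5, 83.1, 376 and 385 CPM and at 509, 1348, 452.7, 1095 and 1185 CPM. The highest control and the lowest expanded library were almost level, and Fabp5 rose by 1.30 ± 0.35 (adjusted p = 0.0167, edgeR), a call lost when any of 4 libraries was left out (adjusted p up to 0.0599). Plin2 fell from 86.5 ± 22.6 to 48.8 ± 24.8 CPM (log2 -0.95 ± 0.22, adjusted p = 0.00816, edgeR) and Apoe from 11426 ± 2513 to 7589 ± 1531 CPM (log2 -0.70 ± 0.12, adjusted p = 0.00208, edgeR), each lower in 5 of 5 pairs. With cells thinned to 2000 UMIs the Plin2 and Abca1 calls were lost (adjusted p = 0.107 and 0.258). The basal keratinocyte list summed to 13351 to 16047 CPM in control and 16355 to 20661 CPM in expanded suprabasal cells.

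In dendritic-like cells, 3 of 10 genes passed, where 13.4% of genes did. Cd36 stood at 24.7, 27.4, 47.0, 30.5 and 27.9 CPM in control and at 11.7, 17.4, 6.77, 2.24 and 9.07 CPM in expanded libraries. No expanded library reached the control range, and Cd36 fell by 1.93 ± 0.36 (adjusted p = 0.00918, edgeR). Fabp5 rose from 230.1 ± 168 to 735 ± 508 CPM (log2 1.38 ± 0.41, adjusted p = 0.0474, edgeR), but this call was lost when any of 8 libraries was left out (adjusted p up to 0.14). Abca1 fell by 0.82 ± 0.22 (adjusted p = 0.0360, edgeR), a call lost for any of 6 libraries (adjusted p up to 0.0894). The macrophage list summed to 7390.0 to 11074 CPM in control and 4413 to 8966 CPM in expanded dendritic-like cells, and its part in these values was not tested.

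Cluster 15, the mural-gene cluster, had 4 of 8 genes past the threshold, where 19.4% of genes passed. Apoe fell from 165 ± 108 to 48.3 ± 14.4 CPM without overlap (log2 -1.79 ± 0.34, adjusted p = 0.00359, edgeR), Abca1 from 42.1 ± 10.9 to 17.1 ± 11.4 CPM (log2 -1.52 ± 0.25, adjusted p = 0.00172, edgeR) and Lpl from 140.4 ± 20.4 to 84.9 ± 28.6 CPM (log2 -0.87 ± 0.16, adjusted p = 0.00371, edgeR). The macrophage list summed to 307 to 1145 CPM in control and 154 to 420 CPM in expanded libraries of cluster 15 and was lower in all 5 pairs, and the fibroblast list summed to 683 to 22016 CPM and 1226 to 9308 CPM and was lower in 4 of 5. Their part in these falls was not tested. Lgals3 rose there by 0.54 ± 0.16 without overlap (adjusted p = 0.0320, edgeR), a call lost for any of 6 libraries (adjusted p up to 0.0765). In cluster 2, led by Coch, Fmod and Crabp1, where 11.2% of genes passed, Lpl fell by 0.77 ± 0.15 (adjusted p = 0.00675, edgeR) and Lgals3 rose by 0.94 ± 0.22 (adjusted p = 0.0162, edgeR), 2 of 8 genes. In cluster 13, led by Hapln1 and Lrrc15, where 1.93% of genes passed, Lgals3 rose by 0.82 ± 0.15 (adjusted p = 0.0139, edgeR) and Fabp5 fell by 0.96 ± 0.17 (adjusted p = 0.00837, edgeR), 2 of 7 genes. The latter call was lost without the control or the expanded day 4 library (adjusted p = 0.051 and 0.0503). In cluster 22, led by Apod and Myoc, where 5.19% of genes passed, Lgals3 alone of 5 genes rose, by 1.01 ± 0.27 (adjusted p = 0.0470, edgeR), a call lost for any of 5 libraries (adjusted p up to 0.2).

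None of the genes passed in 5 classes by edgeR. These were Schwann-like cells (6 tested, where 0.207% of genes passed), T cell-like cells (5 tested, 0.359%), basal keratinocyte-like cells (7 tested, 1.56%), cluster 14 (9 tested, 0.286%) and cluster 18 (4 tested, 0.762%). At an unadjusted p under 0.05, edgeR put 2, 1, 3, 2 and 1 of them apart, and DESeq2 called 0, 0, 1, 2 and 0. Whether a gene's difference was larger in macrophage-like or endothelial cells than in these classes was not tested.

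Over class means of 24 classes and clusters, all libraries pooled, the pattern of each gene was set beside 11051 others by Pearson's r of log2(CPM + 1). Class means share libraries and depth, so r is a description. The closest to Fabp4 were the endothelial carbonic anhydrase Car4 (0.915), Sox17 (0.865) and Serpina1b (0.835), and to Cd36 they were Fabp4 itself (0.732), Pparg (0.708) and Flt1 (0.696). Trem2 was closest to P2ry12 (0.888), Pf4 (0.850) and Lyz2 (0.847), all genes of myeloid cells. Gpnmb was closest to the melanocyte gene Mlana (0.791), Cldn10 (0.780) and C4b (0.778), Apoe to Sox9 (0.807) and Stard5 (0.796) with its neighbour Apoc1 at 0.783, Plin2 to Mfsd7a (0.825), 9130230L23Rik (0.799) and the glycerol kinase gene Gk (0.789), and Lpl to Cxcl1 (0.765), Ifi202b (0.733) and Clmp (0.733). The closest to Fabp5 were Pomp (0.773), Shtn1 (0.770) and Rap2b (0.749), to Abca1 Mindy1 (0.764), Lyl1 (0.689) and Rab11fip5 (0.685), and to Lgals3 Myo5a (0.704), Tom1 (0.681) and Cd44 (0.679).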

How the data were processed

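Single-cell mRNA of control and expanded mouse skin was read from 10 deposited matrices of whole UMI counts (gene by barcode, not normalized), which the authors deposited after Cell Ranger 6.1.2 and mm10, per the submitters' processing notes. The 8 hashing samples name the antibody barcodes. The title and the description of the day 1 round 2 control samples name opposite library kinds, and the description was followed. The members and the pathway lists were chosen with earlier results of these data known.

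Of 55174 barcodes, 47251 passed a minimum of 200 genes and 500 UMIs and a limit of 10% on mitochondrial UMIs. Scrublet in scanpy 1.11.5 and hashtag doublets removed 1778 of them. Scrublet marked under 0.5% of cells in 3 libraries, none of them with over 5000 cells, so some doublets may remain. Cells were clustered on 2000 variable genes, 30 components and 15 neighbours with shared-neighbour weights (leidenalg 0.10.2, resolution 1, best of 10 seeds, Python 3.11.15), with no batch correction, and named by marker lists. The 11 unnamed clusters held 8839 cells and are called by number. Mice were assigned with HTODemux of Seurat 5.3.0 at quantile 0.99.

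For each class, the UMIs of a library's cells were added up where it had 20 cells or more. In 15 classes with 4 or more such libraries an arm, edgeR 4.0.16 in R 4.3.3 was run on these sums (filterByExpr, TMM, quasi-likelihood test, model of arm and day), and p-values were Benjamini-Hochberg adjusted over all genes of the class. The procedure was tested on simulated data. Genes named are the 10 members, the 2 largest called rises and falls of each pathway list, and the 3 genes most like each member; some genes this rule names are not reported here. Control and expanded libraries of the same day and round share the day and round number in their library names. The names do not say whether the same number on different days marks 1 batch. The correlation of their deviations was 0.252 on day 1 and 0.196 on day 2 in macrophage-like cells, and 0.0899 and 0.180 in vascular endothelium. Alternatives were DESeq2 1.42.0, no filter, round as a block, thinning to 2000 UMIs, a mitochondrial limit of 5%, hashed mice as units and leaving out each library. Errors given are the spread between libraries.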

Additional observations from a re-analysis of the deposited data

Results flagged for a closer look

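In groups of 4 to 10 libraries or mice, a value is given here when its gap to the nearest other value was large for the range of its group (Dixon's 95% limit). Of 102 groups examined, 13 held such a value, and chance gives about 1 in 20 groups. No explanation was tested.

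In macrophage-like cells, Lpl in the expanded day 1 round 1 library was 225 CPM, where the other expanded libraries held 29.8 to 71.0 CPM. Gpnmb in the control day 2 round 1 library was 24.4 CPM, against 68.7 to 75.9 CPM in the other control libraries. Among expanded mice of day 2, the highest Fabp5 value was 9032 CPM, against 2844 to 5321 CPM in the other mice, and the highest Apoe value was 1345 CPM, against 143 to 548 CPM.

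In vascular endothelium, Lpl in the control day 2 round 1 library was 33.0 CPM, against 12.6 to 15.03 CPM. Gpnmb in the expanded day 1 round 1 library was 23.2 CPM, against 0 to 1.64 CPM, and that library also had the highest sum of fibroblast markers. Apoe in the expanded day 2 round 1 library was 179.9 CPM, against 354 to 422 CPM.

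In fibroblast-like cells, Lpl in the expanded day 4 library was 154 CPM, against 34.0 to 56.8 CPM in the other expanded libraries, and in cluster 2 it was 311 CPM in the same library, against 192 to 217 CPM. In dendritic-like cells, Fabp5 in the expanded day 4 library was 1601 CPM, against 251 to 617 CPM, and Cd36 in the control day 2 round 1 library was 47.0 CPM, against 24.7 to 30.5 CPM. Fabp5 in suprabasal keratinocyte-like cells was 83.1 CPM in the control day 2 round 1 library, against 376 to 452 CPM, and Lgals3 in cluster 22 was 181 CPM in the expanded day 1 round 1 library, against 282 to 299 CPM.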

How the results depend on the processing

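No called result changed direction under any setting tried; the uncalled Cd36 difference in macrophage-like cells did, as given above. Called counts with 1 library left out ran from 5 to 7 of the 10 genes in macrophage-like cells (6 with all libraries), from 4 to 6 in vascular endothelium (4), and from 19 to 25 combinations in the other classes (24). Those fits called 13.5% to 27.7% of all genes in macrophage-like cells and 6.5% to 11.4% in vascular endothelium. In single other classes they called 0% to 35.5%. Nothing is read from the member counts in the 2 named classes, here or below. For the pathway lists, called counts ran from 8 to 19 higher and 6 to 15 lower genes in macrophage-like cells (12 and 12), and from 0 to 1 higher and 8 to 12 lower genes in vascular endothelium (0 and 11). With no filter on low counts, 7 of the genes were called in vascular endothelium, 44 combinations in the other classes, 19 pathway genes higher in macrophage-like cells and 1 higher in vascular endothelium. Of all genes, that setting called 16.6% in macrophage-like cells, 9.1% in vascular endothelium and 0.88% to 21.6% in the other classes. DESeq2 called 20 pathway genes higher in macrophage-like cells, and hashed mice as units gave 24. These 2 settings called 28.5% and 48.5% of all genes in that class, in either direction. Thinning left 7 lower pathway genes in macrophage-like cells and 6 in vascular endothelium, where it called 20.7% and 5.87% of all genes in either direction. With the round as a block, the pairing of same-day libraries gave 6 and 4 members, 29 other combinations, 14 higher and 15 lower pathway genes in macrophage-like cells and 14 lower in vascular endothelium. That block called 30.9% and 15.7% of all genes in the 2 named classes and 0.52% to 36.4% in the others. The cause of these shifts was not tested. Of 24 member calls in the other classes, 17 held with each library left out and 7 lost the call at least once; of 23 pathway genes that the naming rule gives, 15 held and 8 did not. Shares of cells moved by more than 1 SD without thinning in 32 of 40 values. Depth limits Lpl in endothelium, at 14 to 42 UMIs in a control and 1 to 22 in an expanded library, and Trem2 there, at 0 or 1.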

Other observations

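Trem2 UMIs were also seen in Schwann-like cells, the glia of skin nerves, where the gene was too low to be tested. In control libraries, between 0 and 3 cells carried a UMI, of 12 to 241 cells, and the class mean was 3.79 ± 3.22 CPM (n = 4). In expanded libraries, 18 of 164 cells on day 4 carried a Trem2 UMI, 47 UMIs in all with up to 8 in a cell, and 6 of 107 cells carried 20 UMIs on day 2 round 2. The other expanded libraries had at most 3 such cells, and the class mean was 27.0 ± 26.4 CPM (n = 4). The macrophage marker list summed to 620 to 679 CPM in control and 118 to 345 CPM in expanded Schwann-like cells. That sum covers the whole class and does not describe the few cells with a Trem2 UMI. Scrublet marked only 0.0292% of cells in the expanded day 4 library and 0.259% in that of day 2 round 2. With hashtag doublets, 4.38% and 3.89% were removed there, and doublets may remain. Neither the difference nor the part of doublets in it was tested.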
